A study of Mus musculus with 6 samples.

Results

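Collagen chain genes and Fkbp10, the gene of a collagen chaperone, made up 8 of the 466 genes in the deposited comparison of microglial RNA from Piezo1 knockout and control 5×FAD mice. Every row whose gene name was Col followed by a digit was taken, which gave 7 chains (Col8a1, Col8a2, Col6a1, Col6a2, Col16a1, Col11a1 and Col4a5), and the row of Fkbp10 was added. Microglia, the brain's resident macrophages, had been isolated from adult male 5×FAD mice, a transgenic model of amyloid deposition. The 3 knockout samples carried Cx3cr1CreER-EYFP, Piezo1 fl/fl and the 5×FAD transgenes. The 3 control samples were from littermates with Piezo1 fl/fl and the same transgenes and no named Cre allele. Both groups received intraperitoneal tamoxifen at 20 mg/kg on 4 days from an age of 4.5 weeks, and the strain was labelled C57BL/6N. The Cre is expressed from the Cx3cr1 locus, which is active in microglia and also in other macrophages of the brain borders, and its carriers were compared with mice for which no Cre was named, so loss of the channel and presence of the allele cannot be told apart.

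Collagens are secreted proteins of the extracellular matrix in which chains wind around each other in a triple helix. The helix needs a glycine at regular spacing along each chain, and its folding in the endoplasmic reticulum depends on chaperones such as the one encoded by Fkbp10. In the brain, collagen genes are known mainly from meningeal and perivascular fibroblasts, mural cells, endothelium and choroid plexus stroma rather than from microglia. Type VIII chains (Col8a1, Col8a2) are short-chain collagens that form lattices, and type VI chains (Col6a1, Col6a2) form beaded filaments. Col16a1 encodes a fibril-associated chain, Col11a1 a fibril-forming chain and Col4a5 a chain of the basement membrane network.

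The sequence feature that unites the chains is the repeat of GGN, the codons of glycine, followed by 2 other codons. The longest unbroken run of this repeat was found by script in the longest complete coding sequence of each gene (GENCODE M21, GRCm38). The opening 81 bases of the run are shown for both type VIII and both type VI chains, pairs that were highest in different control samples, as described below. Capitals mark the GGN codons.
Col8a1: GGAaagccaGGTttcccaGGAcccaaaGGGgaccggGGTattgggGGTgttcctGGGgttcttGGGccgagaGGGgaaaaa
Col8a2: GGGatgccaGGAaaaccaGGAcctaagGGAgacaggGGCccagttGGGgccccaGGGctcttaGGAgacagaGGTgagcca
Col6a1: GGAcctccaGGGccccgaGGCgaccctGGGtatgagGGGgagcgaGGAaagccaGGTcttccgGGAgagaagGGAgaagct
Col6a2: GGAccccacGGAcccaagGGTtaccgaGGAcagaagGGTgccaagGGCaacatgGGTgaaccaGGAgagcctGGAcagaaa
The Col8a1 stretch lies in exon 4 of 4 (GRCm38, chr16:57628012-57628092, minus strand) and that of Col8a2 in exon 4 of 4 (chr4:126311132-126311212, plus strand). The Col6a1 stretch spans exons 8 and 9 of 35 (chr10:76719632-76720996, minus strand) and that of Col6a2 exons 5 and 6 of 28 (chr10:76611957-76613290, minus strand), with an intron inside each interval. The run held 61 triplets in Col8a1, 60 in Col8a2, 87 in Col6a1 and 87 in Col6a2, so the chains of each type were nearly equal in it. It held 338 triplets in Col11a1, 52 in Col16a1 and 42 in Col4a5. In Fkbp10, which is no collagen, the longest run was 4 triplets. A run of at least 9 triplets was present in all 44 annotated collagen chain genes and in 61 of the other protein-coding genes, or 0.488% of 21506 genes together.

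The values are normalised read counts, which the authors made by dividing gene counts by a size factor per sample, so that 1 read was worth close to 1 unit. Values of one gene are given below for samples 1, 2 and 3 of a group, in that order. Recovered reads in the 466 listed genes ranged from 49643 to 180760 per sample. They are a sum over selected genes, and the depth of the libraries is unknown. The authors' table holds only genes that differed between these same samples at an unadjusted p under 0.05 and by more than 1 on the log2 scale. A member's presence in it is therefore a result of the authors' selection, and the counts below are descriptions. Of 44 annotated collagen chain genes 7 were listed, and the other 37 were not analysed here. Piezo1 was not among the listed genes, so the deletion was not checked. Cx3cr1, the one listed gene of 14 microglia markers, stood at 58569, 61450 and 79363 normalised reads in the control samples and at 32081, 27906 and 35698 in the knockout samples. The samples are called biological repetitions without a count of mice, so each p below measures the spread between these samples.

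All 8 genes were lower in the knockout than in the controls, where 88.0% of the listed genes were lower. Only Col8a1 passed the authors' test: it fell by 4.30 on the log2 scale in the authors' deposited table (adjusted p = 0.0170 over 19107 genes). That share of 1 in 8 stands beside 3.00% of all listed genes, 14 in number. The sum over the 8 genes was 60.8, 293.9 and 521.5 normalised reads in the control samples, against 21.6, 22.5 and 10.1 in the knockout samples. The sums did not overlap, and the controls differed from each other far more than the knockout samples did. All 8 genes had been selected as differing on these same samples. The sums over all 466 listed genes did not overlap either. They were 111814, 134352 and 176871 normalised reads in the control samples and 70085, 50693 and 69565 in the knockout samples. The purity of the isolated microglia was not measured here. A lower sum of reads can come from fewer cells of one type or from less RNA per cell. These cannot be told apart here.

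**Figure D1:**
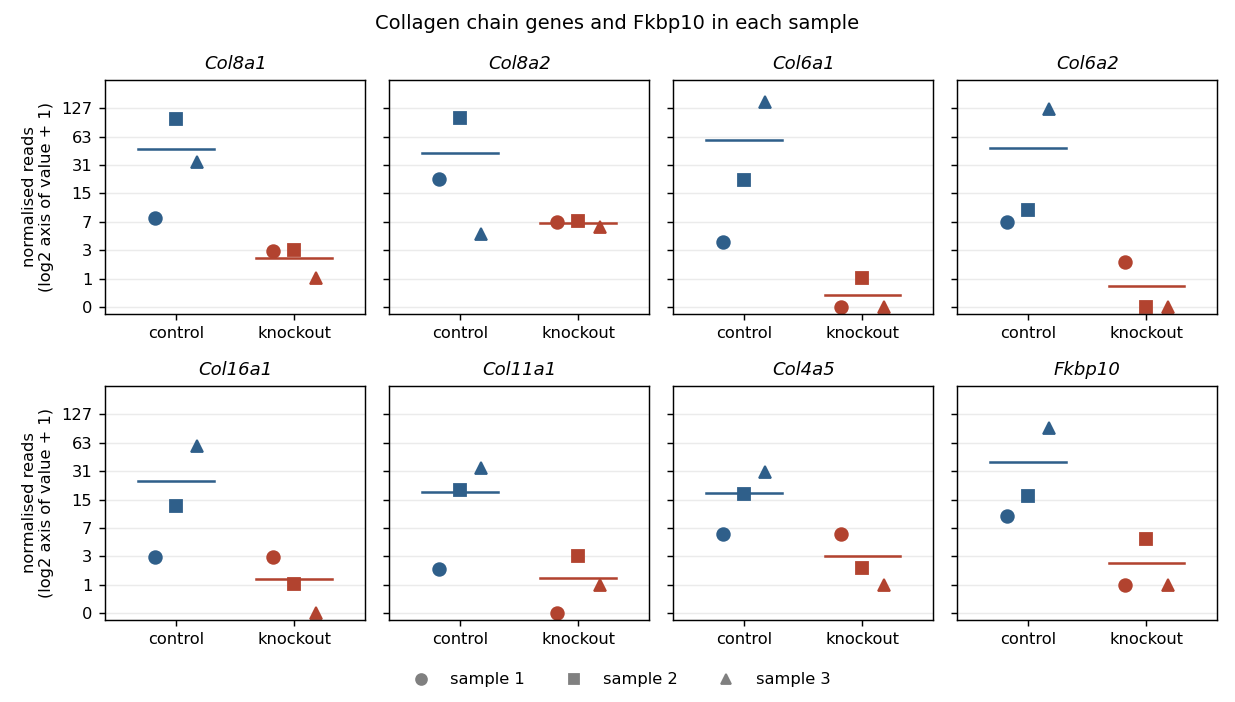
Normalised reads of each gene in the 3 control (blue) and 3 knockout (red) samples, on a log2 axis of the value plus 1, with horizontal lines at the group means. The knockout samples lie at or below 7.15 normalised reads for all 8 genes, while at least 2 of the 3 controls lie above the highest knockout sample of each gene, and control 3 lies below all knockout samples for Col8a2.

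Col8a1 (ENSMUSG00000068196, chr16:57624258-57754737, minus strand) had 7.85, 97.0 and 33.3 normalised reads in the control samples. In the knockout samples it had 2.95, 3.06 and 1.01. Every control was above every knockout sample, and control 2 stood highest. The mean was 46.0 ± 45.9 in controls and 2.34 ± 1.15 in the knockout (SD, n = 3 each), a 19.7-fold difference. Without control 2 the ratio of means was 8.78, and control 1 alone stood 3.35-fold above the knockout mean.

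Col8a2 (ENSMUSG00000056174, chr4:126286793-126314330, plus strand), the partner chain of type VIII collagen, had 21.6, 99.9 and 4.89 normalised reads in the control samples. The knockout samples had 6.88, 7.15 and 6.07, the most even knockout values of the 8 genes relative to their mean. The groups overlapped, since control 3 was below all knockout samples while controls 1 and 2 were above them. The mean was 42.1 ± 50.7 in controls and 6.70 ± 0.561 in the knockout (SD, n = 3 each), a 6.29-fold difference that was 1.98-fold without control 2. In the authors' deposited table its log2 fold change was -2.65, where its adjusted p was 0.595. Its limma log2 fold change was -1.63, and -0.21 after the samples were rescaled to the median ratios of the listed genes. The factors of this rescaling came from the listed genes themselves, of which 88.0% were lower. It therefore takes out part of the difference for which the genes were selected. Both of the 2 annotated type VIII chains were listed.

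Both type VIII genes were highest in control 2. The 250 bases before their RefSeq start (GRCm38.p6) are shown as a description, and a link between sequence and level in a sample was not tested. Capitals mark matches, on either strand, to 4 motifs that were searched: GGGCGG (the GC box), GGAATG (the core of TEAD sites), TATAAA (the TATA box) and CAGACA (a SMAD element).
Col8a1: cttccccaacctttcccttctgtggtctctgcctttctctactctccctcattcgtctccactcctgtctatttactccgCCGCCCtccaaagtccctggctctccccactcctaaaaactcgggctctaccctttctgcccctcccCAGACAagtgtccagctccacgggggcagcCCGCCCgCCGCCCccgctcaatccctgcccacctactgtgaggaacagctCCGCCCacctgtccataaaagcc
Col8a2: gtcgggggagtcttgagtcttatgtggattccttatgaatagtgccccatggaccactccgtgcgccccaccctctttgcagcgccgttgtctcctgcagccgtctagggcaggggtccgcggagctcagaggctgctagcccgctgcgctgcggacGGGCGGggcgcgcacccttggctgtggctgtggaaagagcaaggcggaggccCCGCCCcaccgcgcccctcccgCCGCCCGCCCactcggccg
The Col8a1 window (chr16:57754738-57754987, minus strand) held 4 GC boxes and 1 CAGACA, and the Col8a2 window (chr4:126286544-126286793, plus strand) held 4 GC boxes, some of them overlapping. Over the 8 windows of 7 collagen chain genes, a GC box was present in 7, the TEAD core in 1, the TATA box in 0 and CAGACA in 1. The shares among 32851 windows of the same length were 32.7%, 12.6%, 12.4% and 17.1%. The GC content of the collagen windows ranged from 54.0% in Col4a5 to 75.6% in Col16a1, against a median of 52.4% over all windows. A match describes letters and does not show that a factor binds.

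Col6a1 (ENSMUSG00000001119, chr10:76708792-76726168, minus strand) encodes the first chain of type VI collagen. It had 3.92, 21.3 and 146.8 normalised reads in the control samples, and 0, 1.02 and 0 in the knockout samples. The knockout group thus held a single read, against 176 in the controls, a ratio of 171 with a 95% interval of 30.3 to 6792 from an exact binomial calculation that covers counting error only. All controls were above all knockout samples, and control 3 held 85.3% of the control sum. Without control 3 the ratio of means was 37.1. The authors' deposited table gave a log2 fold change of -7.31 and an adjusted p of 0.209.

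Col6a2 (ENSMUSG00000020241, chr10:76595762-76623630, minus strand), the second chain, lies 85.2 kb from Col6a1 on the same strand, with 1 annotated gene and no protein-coding gene between them. It had 6.87, 9.70 and 125.2 normalised reads in the control samples, and 1.97, 0 and 0 in the knockout samples. The groups did not overlap, and the 2 reads of the knockout stood against 145 in the controls, a ratio of 70.4 (exact 95% interval 19.2 to 587, counting error only). Control 3 held 88.3% of the control sum, close to its share for Col6a1. Without control 3 the ratio of means was 12.6, which lies below that interval. The authors' deposited table gave Col6a2 a log2 fold change of -6.16 and an adjusted p of 0.527. Of the 6 annotated type VI chains these 2 were listed.

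Col16a1 (ENSMUSG00000040690, chr4:130047840-130099283, plus strand), the single annotated chain of type XVI, had 2.94, 12.6 and 57.7 normalised reads in the control samples. It had 2.95, 1.02 and 0 in the knockout samples, so control 1 and knockout 1 held 3 reads each and the groups overlapped. The means were 24.4 ± 29.2 and 1.32 ± 1.498 normalised reads (SD, n = 3 each), and the authors' deposited table listed an adjusted p of 0.335.

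Col11a1 (ENSMUSG00000027966, chr3:114030540-114220718, plus strand), a minor chain of fibrils, had 1.96, 19.4 and 33.3 normalised reads in the control samples and 0, 3.06 and 1.01 in the knockout samples. Control 1 lay below knockout 2, while controls 2 and 3 lay above all knockout samples. The means were 18.2 ± 15.7 and 1.36 ± 1.56 normalised reads (SD, n = 3 each), and the authors' deposited table listed an adjusted p of 0.634.

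Col4a5 (ENSMUSG00000031274, chrX:141475385-141689234, plus strand) had 5.89, 17.5 and 30.3 normalised reads in the control samples and 5.90, 2.04 and 1.01 in the knockout samples. Control 1 and knockout 1 held 6 reads each, and controls 2 and 3 were above the knockout samples. The means were 17.9 ± 12.2 and 2.98 ± 2.58 normalised reads (SD, n = 3 each), which differ 6.00-fold, and the authors' deposited table listed an adjusted p of 1.00. Of the 6 annotated type IV chains this was the one listed. A processed pseudogene, Gm15268, lies within its span on the same strand.

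Fkbp10 (ENSMUSG00000001555, chr11:100415697-100424824, plus strand) encodes a prolyl isomerase of the endoplasmic reticulum that assists folding of procollagen. It had 9.81, 16.5 and 90.0 normalised reads in the control samples and 0.983, 5.11 and 1.01 in the knockout samples. The groups did not overlap, and control 3 stood highest. The means were 38.8 ± 44.5 and 2.37 ± 2.37 normalised reads (SD, n = 3 each), which differ 16.4-fold, or 5.56-fold without control 3. The authors' deposited table gave a log2 fold change of -4.04 and an adjusted p of 0.0685. Nt5c3b overlaps its end on the opposite strand, and the sources used here do not say whether reads were counted by strand.

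Per kilobase of the gene length in the table, the control mean was highest for Fkbp10 (13.2 ± 15.2 normalised reads per kb, SD, n = 3) and Col6a1 (13.1 ± 17.8). Col8a2 followed at 9.38 ± 11.3, Col8a1 at 5.88 ± 5.86 and Col6a2 at 5.68 ± 8.11 normalised reads per kb (SD, n = 3). Col16a1 stood at 3.62 ± 4.33, Col4a5 at 2.66 ± 1.82 and Col11a1 at 1.43 ± 1.23. The SD was close to the mean or above it in all of them but Col4a5. The genes were read in the same samples, so these SDs do not measure the difference between 2 genes. The order of neighbours was not tested. Col4a5, at 0.876, 2.60 and 4.52 per kb in the control samples, was above Col11a1, at 0.154, 1.52 and 2.61, in each of them. In the knockout Col8a2 was highest, at 1.49 ± 0.125 normalised reads per kb, and Col6a1 and Col6a2 were lowest, at 0.0777 ± 0.135 and 0.0787 ± 0.136 (SD, n = 3 each).

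A fit of log2(normalised reads + 1) over all 466 genes with limma gave a median log2 fold change of -3.01 for the 8 genes, against -1.99 for all listed genes. For the listed genes that were lower, as all 8 were, that median was -2.11. At an adjusted p of 0.05 limma called 0 of the 8 genes and 0.00% of the listed genes, while 7 of the 8, all but Col8a2, and 52.6% of the listed genes had an unadjusted p under 0.05. The log2 fold change of Col8a1 was -3.28 (SE 0.95, 95% interval -5.42 to -1.15) and that of Col6a1 was -4.32 (SE 1.16, interval -6.93 to -1.72), both with a limma adjusted p of 0.0533. Col8a2 had the smallest difference, at -1.63 (SE 1.00, interval -3.87 to 0.62, limma adjusted p = 0.161). edgeR on the recovered reads called 0 of the 8 genes and 0.00% of the listed genes. DESeq2 on the same reads called 4 of the 8, which are Col8a1, Fkbp10, Col6a1 and Col6a2, and 10.3% of the listed genes. The same 4 genes had groups that did not overlap, a pattern shown by 45.3% of the listed genes in this direction. The limma, edgeR and DESeq2 adjustments ran over genes that the authors had selected on these same samples. Their adjusted p-values therefore do not limit the share of false calls. The authors' adjusted p over 19107 genes was 0.209 for Col6a1 and 0.527 for Col6a2. By the fold change in the authors' deposited table all 8 were at least 4-fold lower, as were 71.0% of the listed genes. Without control 1, limma called 7 of the 8 genes, and with any other sample left out it called 0.

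**Figure D2:**
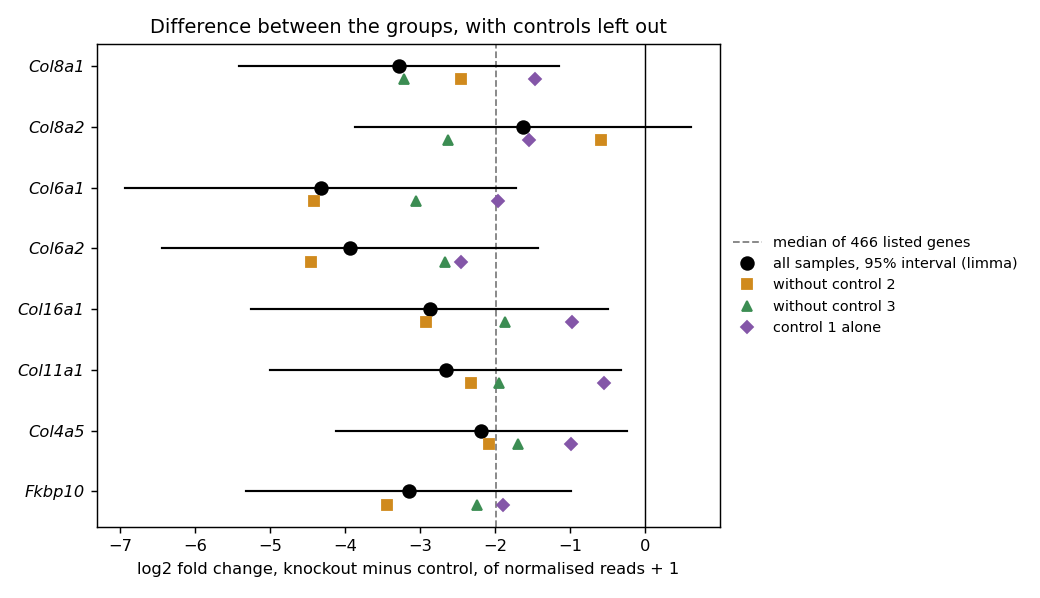
Log2 fold change (knockout minus control) of normalised reads plus 1 for each gene from limma, with its 95% interval (black), and the estimate with control 2 or control 3 left out or with control 1 as the one control. All estimates lie below 0, the dashed line marks the median of -1.99 over 466 listed genes, and the interval of Col8a2 spans 0.

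The size of the difference rested on controls 2 and 3. The median log2 fold change of the 8 genes was -2.69 without control 2 and -2.44 without control 3. With control 1 as the one control, a setting chosen after the data were examined, it was -1.51, against -1.09 over all listed genes. Control 1 was above the highest knockout sample for 5 of the 8 genes, control 2 for all 8 and control 3 for 7. Against control 1 alone, the limma log2 fold change was largest for Col6a2, at -2.45 (limma adjusted p = 0.252), and smallest for Col11a1, at -0.56 (limma adjusted p = 0.717). Without control 3, it was -3.05 for Col6a1 and -2.67 for Col6a2, and without control 2 it was -2.45 for Col8a1 and -0.59 for Col8a2.

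The 8 genes differed in which control was highest. Control 3 was highest for 6 of them (Col6a1, Col6a2, Col16a1, Col11a1, Col4a5 and Fkbp10), against 48.1% of the listed genes that were lower and highest there. Control 2 was highest for Col8a1 and Col8a2, against 37.1% of the listed genes, and control 1 for none of the 8, against 2.79%. Of the control sum, control 3 held 77.4% for Fkbp10 and 78.8% for Col16a1, but 60.9% for Col11a1 and 56.5% for Col4a5. Control 2 held 70.2% of the Col8a1 sum and 79.0% of the Col8a2 sum, and control 3 held 24.1% and 3.87% of them. Over the 6 samples, Pearson's r of log2(value + 1) was 0.98 between Fkbp10 and Col6a1 and 0.94 between Col6a1 and Col6a2. For Col8a1 it was 0.68 with Col8a2 and higher with each of the other 6, from 0.75 with Col6a2 to 0.89 with Col4a5. For Col8a2 it was between 0.12 with Col6a2 and 0.34 with Col4a5 over those 6. Col8a1 thus shared its highest sample with Col8a2 but followed the other 6 more closely over all samples. These 6 points share the split into groups, so the values are descriptions.

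**Figure D3:**
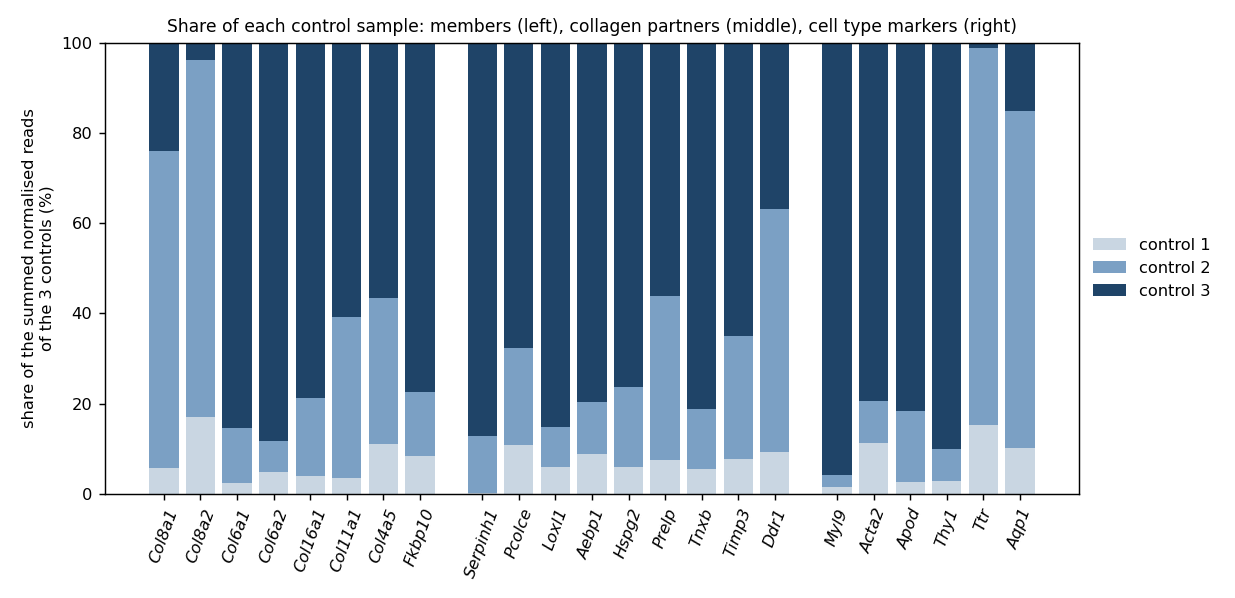
Share (%) of the summed normalised reads of the 3 controls that lies in control 1, 2 or 3, for the collagen chains and Fkbp10 (left), listed genes of collagen folding, processing, binding and turnover (middle) and listed cell type markers (right). Control 3 holds 85.3% for Col6a1 and 77.4% for Fkbp10, whereas control 2 holds 70.2% for Col8a1 and 79.0% for Col8a2.

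Genes that act on collagen were listed beside the chains, and all of these were lower, as were 88.0% of all listed genes. Of 24 genes for collagen folding and modification, Fkbp10 and Serpinh1 were listed, and neither passed the authors' adjusted p of 0.05. Serpinh1, which encodes the collagen chaperone HSP47, had 0.981, 48.5 and 333.7 normalised reads in the control samples and 9.83, 6.13 and 0 in the knockout samples. Control 1 lay below knockouts 1 and 2, so Serpinh1, unlike Fkbp10, had overlapping groups. Of 14 genes for procollagen processing and cross-linking, Loxl1 and Pcolce were listed, and neither passed. Loxl1, a lysyl oxidase family gene, had 10.8, 16.5 and 157.5 normalised reads in the control samples and 0, 0 and 1.01 in the knockout samples, without overlap. Pcolce, an enhancer of procollagen C-proteinase, had 78.5, 158.1 and 496.1 normalised reads in the control samples and 72.7, 94.97 and 72.8 in the knockout samples. Control 1 lay below knockout 2, so its groups overlapped.

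Of 22 collagen-binding matrix organisers, 7 were listed, all lower, and 4 fell by the authors' adjusted p: Aebp1, Hspg2, Prelp and Tnxb. Over all listed genes, 88.0% were lower and 3.00% passed that test as lower. The median log2 fold change of the 7 was -3.95 in the authors' deposited table, or -3.89 with Tnxb, which had no reads in any knockout sample, set at the bound that a floor of 3 reads per library gives. With no floor applied, the same median was -4.12 for the 8 collagen-related genes and -2.77 for all listed genes. For the listed genes that were lower, as all 8 were, it was -3.10. Prelp, a leucine-rich proteoglycan that anchors collagen to basement membranes, had 11.8, 56.3 and 87.1 normalised reads in the control samples and 4.92, 2.04 and 3.04 in the knockout samples. Aebp1, which encodes a secreted collagen-binding protein, had 28.5, 36.9 and 254.4 against 10.8, 8.17 and 5.06 in the same order. All 7 were highest in control 3, as were the chains other than type VIII, and 48.1% of all listed genes were lower and highest there. Of 12 collagen receptors only the kinase gene Ddr1 was listed, at 7.85, 45.6 and 31.3 normalised reads in the control samples and 7.86, 9.19 and 1.01 in the knockout samples. Of 16 genes of collagen degradation, Timp3, Timp1 and Ctsk were listed and none passed. Timp3, a metalloproteinase inhibitor gene, had 10.8, 37.8 and 90.0 normalised reads in the control samples and 9.83, 9.19 and 5.06 in the knockout samples. Its groups did not overlap, though control 1 and knockout 1 were nearly equal. This pattern, also that of Loxl1, was shown by 45.3% of the listed genes.

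By Pearson's r over the 6 samples, the listed genes most like the mean log2 profile of the 8 genes were Ndn (r = 0.998), Meig1 (0.989), Shroom2 (0.987), Afap1l2 and Npy2r (0.986 each). Ndn, the gene of necdin, had 3.92, 22.3 and 33.3 normalised reads in the control samples and 0.983, 1.02 and 0 in the knockout samples. The other 4 had at most 14.7 normalised reads in any sample, where a few reads set the profile.

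Markers of cell types that are known to express collagens were listed as well. They too were lower in the knockout, as were 88.0% of all listed genes. Of 18 fibroblast markers 4 were listed (Ptgds, Apod, Igfbp2 and Aebp1, which is also in the list of matrix organisers), all lower. Their sum was 143.2, 581.9 and 345.4 normalised reads in the control samples and 77.7, 68.4 and 25.3 in the knockout samples. Ptgds and Igfbp2 were highest in control 2, and Apod and Aebp1 in control 3. Apod was at 0 in knockouts 1 and 3 and at 1.02 in knockout 2, against 0.981, 5.82 and 30.3 normalised reads in the control samples, so its groups overlapped. Of 16 mural cell markers Myl9 and Acta2 were listed, with sums of 24.2 to 255.4 in controls and 5.11 to 26.3 in the knockout, so the mural sums overlapped between the groups. Myl9 was at 0 in knockouts 1 and 3 and at 1.02 in knockout 2, against 0.981, 1.94 and 66.5 normalised reads in the control samples. Its groups overlapped too. Both mural genes were highest in control 3, as the type VI chains were, and 48.1% of all listed genes were lower and highest there. Of 17 endothelial markers Pltp and Spock2 were listed, with sums of 89.3 to 235.7 against 48.6 to 70.8 normalised reads.

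Of 19 choroid plexus and ependymal markers 9 were listed, and all 9 were highest in control 2, where the type VIII chains were highest too. Of all listed genes, 37.1% were lower and highest in control 2. Their sum was 3516, 19326 and 368.9 normalised reads in the control samples and 2050, 891.5 and 592.9 in the knockout samples, so control 3 was lower than all knockout samples. Ttr, the transthyretin gene, made up most of this sum. Without Ttr the sum was 147.2, 755.5 and 103.7 normalised reads in the control samples and 94.4, 44.9 and 30.4 in the knockout samples, so every control was then above every knockout sample. Control 3 was above every knockout sample for 5 of the other 8 markers (1500015O10Rik, Aqp1, Cldn2, Kcnj13 and Steap1) and below every one for 3 (Otx2, Foxj1 and Tmem72). None of the 9 was at 0 in all knockout samples, though Steap1 was at 0 in knockouts 2 and 3. Of 16 neuron markers 7 were listed, with sums of 79.5 to 779.9 normalised reads in controls and 11.1 to 69.4 in the knockout, and 5 of them were highest in control 3. Of 14 astrocyte markers 3 were listed, with sums of 10.8 to 142.9 against 3.04 to 22.5. Of 7 erythroid markers Hba-a1 and Hbb-bs were listed, with sums of 28.5 to 268.1 against 0 to 28.6. The oligodendrocyte lineage list gave Gsn alone of 12 genes, at 224.7 to 833.7 against 161.3 to 295.4 normalised reads. Of 12 border macrophage markers Cd209a was listed as lower and Clec4n as higher. Cd209a had 11.8, 14.5 and 13.7 normalised reads in the control samples and 3.93, 3.06 and 5.06 in the knockout samples. Clec4n had 0, 0 and 0.978 against 6.88, 2.04 and 6.07 in the same order. The part of these cell types in the collagen values was not tested.

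**Figure D4:**
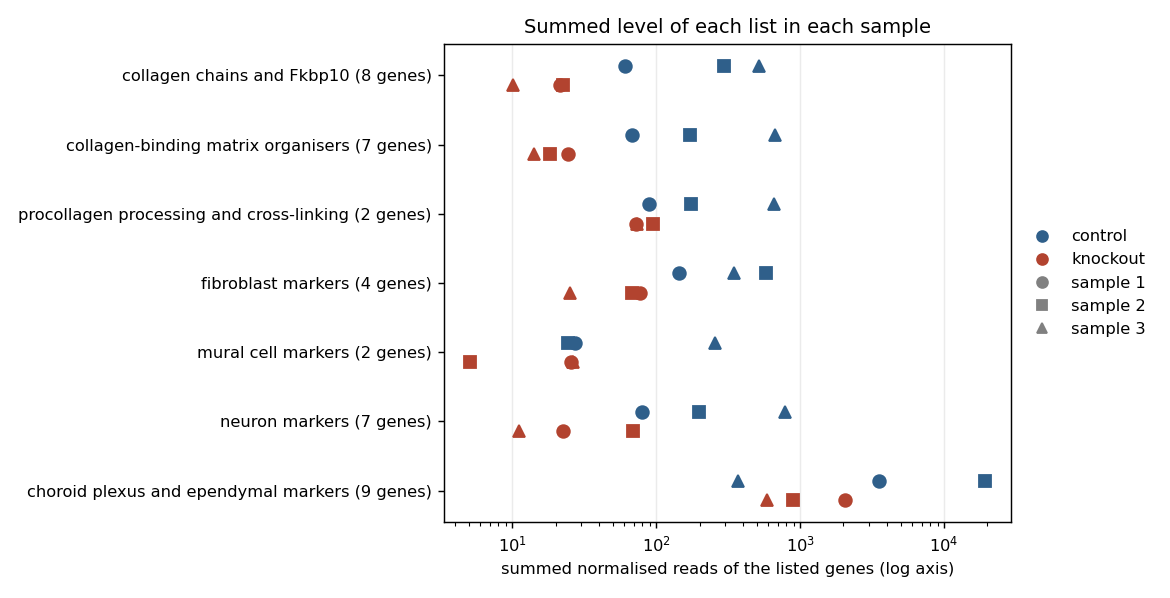
Summed normalised reads (log axis) of the 8 collagen-related genes and of the listed genes of 6 lists in each control (blue) and knockout (red) sample. The collagen sums run from 60.8 to 521.5 in controls and from 10.1 to 22.5 in the knockout, with control 3 highest, while the choroid plexus and ependymal sum is highest in control 2, at 19326.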

How the data were processed

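RNA of 3 knockout and 3 control samples had been enriched for poly(A) and sequenced in pairs of 150 bases, per the labels' protocols. The submitters' processing notes name the build GRCm38 and, in no order, HISAT2, cutadapt 1.11, DESeq2, RSEM 1.2.30 and R 3.6.1. The values are a normalised signal that the authors deposited per gene and sample: gene counts over a size factor (0.979 to 1.03), since 100% of values were whole multiples of 1 read (tolerance 1e-06). The authors also deposited a log2 fold change, a p-value and its adjusted form per gene. Their adjustment corresponds to 19107 genes. The table holds selected genes, so library depth is unknown and low values rest on few reads.

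Samples were grouped by title. limma 3.58.1 (R 4.3.3, mean-variance trend) was fitted to log2(value + 1) over all 466 genes with no filter and Benjamini-Hochberg adjustment at 0.05. edgeR 4.0.16 (quasi-likelihood) and DESeq2 1.42.0 were run on recovered reads with the recovered size factors. All 3 were also run on simulated counts with changes drawn in both directions. The simulation held no selection of genes on the samples, so it does not bear on the calls given here. A 3 against 3 exact permutation test cannot go below p = 0.1 and was not used. All members were named, with at most 4 genes per list by mean level and the 5 genes most correlated with the members' mean. Members and lists were chosen with earlier results of these data known. Coding sequences came from GENCODE M21, where all 8 identifiers matched with the same start and end, and promoters from RefSeq (GRCm38.p6). Alternatives were other pseudocounts, a low-value filter, rescaling, a replicate block and leaving out samples.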

Additional observations from a re-analysis of the deposited data

How the results depend on the processing

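All 8 genes stayed lower in the knockout under the 14 alternatives (0 of 111 single-gene values changed sign), on genes the authors had selected as lower on these samples. limma's count of calls rose from 0 of 466 genes to 120 with a pseudocount of 0.5 (4 of the 8 collagen-related genes), to 1 with a mean of at least 10 normalised reads and to 56 after rescaling to median ratios of the listed genes. DESeq2 called 48 (4 of the 8). Leaving out 1 sample gave 0 to 196 calls over all genes, with 196 without control 1 and 36 without control 3, and 0 to 7 among the 8 genes, with 7 without control 1. With control 1 as the one control, chosen after seeing the data and assuming that it varies like the knockout samples, 54 genes and 0 of the 8 were called and the median of the 8 was -1.51. The cause was not tested. The rescaling, whose factors came from the selected genes themselves, shifted the median of all listed genes by 1.02. It moved the median of the 8 genes from -3.01 to -1.89. Under it the log2 fold change of Col8a2 was -0.21 (limma adjusted p = 0.882) and that of Col4a5 -0.90 (limma adjusted p = 0.462). The numbers of the labels did not pair the samples (r of deviations -0.04, -0.04 and 0.07 for pairs 1, 2 and 3), and with the replicate block limma called 4 genes, 0 of the 8. Each knockout value rests on at most 7 reads per sample, which limits every ratio here.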
